A study of Mus musculus with 20 samples.

Results

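Cytosolic acetyl-CoA is the building block of new fatty acids, and the transcripts of 7 genes that supply it, carboxylate it and assemble it into chains were followed here in visceral fat of mice that were pregnant or not, on a high fat (HF) or a control diet. The genes were Slc25a1, Acly, Acss2, Aacs, Acaca, Acacb and Fasn, chosen by name, and they are 7 of the 18193 genes that the array represents with a probe set of a single gene symbol. Each was read from the probe set annotated to it alone that had the highest mean over the 20 arrays, and all 7 of these probe sets exceeded an intensity of 100 on 20 of 20 arrays. Of the 18 probe sets annotated to 1 of the 7 genes alone, 12 passed the filter on low values, and a further probe set shared by Acss2 and another gene was not used.

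Female C57BL/6J mice were given the HF diet (58% fat) or the control diet (10% fat) for some weeks before mating and during pregnancy, and 5 mice were arrayed singly in each of the groups HF pregnant, HF non pregnant, control pregnant and control non pregnant. Pregnant mice were killed at E18.5, the day of gestation counted from the vaginal plug, and the labels give E18.5 for the non pregnant mice too. The labels call the tissue visceral fat and the study's text names the mesenteric depot, from which visible lymph nodes had been removed. Both diets are purified diets that differ in carbohydrate as well as in fat, so that the HF groups ate more fat and less starch than the control groups. The mice came from different litters, and neither an extraction nor a scanning batch is given in the labels. Values are robust multi-array average intensities on a linear scale, their medians per array lay between 60.7 and 64.7, and comparisons were made on log2 values. The probe sets of Acly and Fasn reached 22900 and 20522 units at most, where the brightest probe set of an array lay between 24152 and 30308 units.

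Fat cells make fatty acids from glucose when carbohydrate is plentiful. Citrate leaves the mitochondrion through the citrate carrier (Slc25a1) and is split by ATP citrate lyase (Acly) into acetyl-CoA and oxaloacetate. Cytosolic acetyl-CoA is also made from free acetate by acetyl-CoA synthetase 2 (Acss2), and acetoacetyl-CoA from the ketone body acetoacetate by acetoacetyl-CoA synthetase (Aacs). Acetyl-CoA carboxylase 1 (Acaca) adds a carboxyl group to give malonyl-CoA for chain synthesis, whereas the malonyl-CoA of acetyl-CoA carboxylase 2 (Acacb), at the mitochondrial surface, restrains the entry of fatty acids for oxidation. Fatty acid synthase (Fasn) then builds palmitate from acetyl-CoA and malonyl-CoA with NADPH.

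All 7 genes had lower mean levels on the HF diet in late pregnancy, and not all of their promoter windows are shown. The windows shown are those of the genes whose transcripts passed the test there, and of the citrate carrier, which did not pass. They come from RefSeq (GRCm38.p6), run from 250 bases before to 50 bases after the annotated start, and capitals mark matches on either strand to the motifs searched: TCACNCCAC (the core of a sterol regulatory element), CACGTG (an E-box, the site of USF proteins and part of that of ChREBP), CCAAT (the site of NF-Y) and GGGCGG (a GC box, the site of Sp1). The windows lie at chr2:155517793-155518092, plus strand (Acss2), chr11:100527951-100528250, minus strand (Acly), chr11:120824498-120824797, minus strand (Fasn) and chr16:17928170-17928469, minus strand (Slc25a1).
Acss2: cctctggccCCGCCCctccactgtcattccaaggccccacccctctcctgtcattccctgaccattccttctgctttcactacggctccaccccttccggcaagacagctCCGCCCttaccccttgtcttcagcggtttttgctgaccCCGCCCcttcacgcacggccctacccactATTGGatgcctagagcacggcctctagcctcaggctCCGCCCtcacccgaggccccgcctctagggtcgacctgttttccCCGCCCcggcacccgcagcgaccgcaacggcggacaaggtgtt
Acly: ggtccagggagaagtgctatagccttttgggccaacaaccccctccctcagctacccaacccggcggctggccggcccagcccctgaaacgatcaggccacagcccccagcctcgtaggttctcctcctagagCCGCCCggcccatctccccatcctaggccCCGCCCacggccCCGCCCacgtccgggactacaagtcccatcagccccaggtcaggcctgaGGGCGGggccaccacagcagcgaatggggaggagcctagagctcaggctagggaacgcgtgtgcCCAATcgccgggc
Fasn: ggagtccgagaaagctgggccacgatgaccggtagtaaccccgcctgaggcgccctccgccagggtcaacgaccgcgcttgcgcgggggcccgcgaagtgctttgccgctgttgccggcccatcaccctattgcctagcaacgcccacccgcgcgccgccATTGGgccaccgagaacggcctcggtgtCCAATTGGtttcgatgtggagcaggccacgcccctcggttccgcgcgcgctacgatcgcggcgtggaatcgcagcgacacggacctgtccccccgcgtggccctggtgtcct
Slc25a1: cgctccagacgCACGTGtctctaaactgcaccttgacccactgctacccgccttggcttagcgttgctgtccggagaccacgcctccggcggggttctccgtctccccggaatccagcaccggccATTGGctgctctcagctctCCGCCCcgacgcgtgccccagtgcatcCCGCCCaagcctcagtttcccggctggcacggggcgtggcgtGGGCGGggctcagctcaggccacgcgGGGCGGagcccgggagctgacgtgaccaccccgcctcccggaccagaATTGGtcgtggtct
The Acss2 window held 5 GC boxes and 1 CCAAT box, the Acly window 4 GC boxes and 1 CCAAT box, and the Slc25a1 window 4 GC boxes, 2 CCAAT boxes and the only E-box among the 7 genes. The Fasn window held 3 CCAAT boxes, of which a pair on opposite strands overlapped, and no GC box as spelled here. Of the windows not shown, that of Acacb held 1 CCAAT box and those of Aacs and Acaca none of these motifs. The starts used for Acaca, Acacb and Fasn lie inside the annotated gene, downstream of its outermost start. Over all 32544 windows of the table, 35.9% held a GC box, 37.4% a CCAAT box, 7.17% this E-box and 1.24% the sterol regulatory element core, which was in none of the 7. These are matches of letters, and nothing was measured here about binding.

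In late pregnancy all 7 transcripts had a lower mean on the HF diet, and 3 of them passed the test. The log2 fold changes of HF pregnant over control pregnant mice ran between -2.87 (Acss2) and -1.03 (Acacb), with a median of -1.91, where the median over all 19802 probe sets tested was 0.05. Acss2, Acly and Fasn passed the test across all probe sets (limma, adjusted p under 0.05), so that 3 of 7 were called, all lower, against 0.192% of all probe sets called in either direction. In 6 of 7 genes, all but Acacb, every HF pregnant mouse lay below every control pregnant mouse, where 1.95% of all probe sets did so. At an unadjusted p under 0.05, 6 of 7 were lower, against 7.93% of all probe sets.

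The largest fall was that of Acss2, the enzyme that activates acetate. Its intensity was 503, 625, 376, 468 and 614 in the 5 HF pregnant mice, against 5815, 3913, 5650.2, 2062 and 2675 in the control pregnant mice. The highest HF pregnant value, that of mouse 2, lay below the lowest control pregnant value, that of mouse 4. The level was 7.31-fold lower in HF pregnant mice (log2 -2.87 ± 0.41, SE, n = 5 mice each), with an adjusted p from limma of 0.00361. A second probe set of Acss2 gave a log2 fold change of -2.79 (adjusted p from limma 0.00257).

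On the citrate route, Acly had intensities of 2460.4, 2677, 1979, 2742 and 3023 in HF pregnant mice, against 19873, 12766, 17684, 10465 and 9727 in control pregnant mice. The groups did not overlap, and the level was 5.31-fold lower in HF pregnant mice (log2 -2.41 ± 0.39, SE; adjusted p from limma 0.00915). The other tested probe sets of Acly gave log2 fold changes of -2.13 (adjusted p from limma 0.00474) and -3.14 (adjusted p from limma 0.0197). Slc25a1, which brings the citrate out, had intensities of 669.9, 849.5, 818, 614 and 1196 in HF pregnant mice, against 5049, 2802, 4891, 2216 and 2317 in control pregnant mice. These groups did not overlap either, but the 4.01-fold lower level in HF pregnant mice (95% interval of the log2 fold change -2.92 to -1.09) did not pass after adjustment (adjusted p from limma 0.069).

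Fasn, the last enzyme of the path, had intensities of 4323, 5475, 3674, 3863 and 4513 in HF pregnant mice, against 20522, 14784, 18203, 11939.5 and 14337 in control pregnant mice. Its level was 3.62-fold lower in HF pregnant mice with no overlap (log2 -1.86 ± 0.26, SE; adjusted p from limma 0.00282), and its standard error was the smallest of the 7. Acaca, the carboxylase of chain synthesis, had intensities of 1136, 1658, 1208, 1064 and 2208 in HF pregnant mice, against 8627, 4199, 7855, 3210.4 and 4339 in control pregnant mice. Again no HF pregnant mouse reached a control pregnant one, and the adjusted p from limma lay just above the threshold (log2 -1.91 ± 0.39, SE; adjusted p 0.0561). A weaker probe set of Acaca, above 100 on 8 of 20 arrays, gave -1.62 (adjusted p from limma 0.125).

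Aacs, which draws on acetoacetate, had intensities of 534, 681, 489.8, 402 and 815 in HF pregnant mice, against 2805, 879, 2209, 909 and 1023 in control pregnant mice. The groups did not overlap, though the closest mice were near each other, and the log2 fold change of -1.29 ± 0.39 (SE) was not called (adjusted p from limma 0.199). Acacb, the carboxylase tied to oxidation, had intensities of 394, 637, 616, 312 and 1088 in HF pregnant mice, against 2642, 615, 1889, 714 and 855 in control pregnant mice. It was the only one of the 7 whose groups overlapped, with 2 of 5 HF pregnant mice below every control pregnant mouse and a log2 fold change of -1.03 ± 0.53 (SE; adjusted p from limma 0.424).

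**Figure D1:**
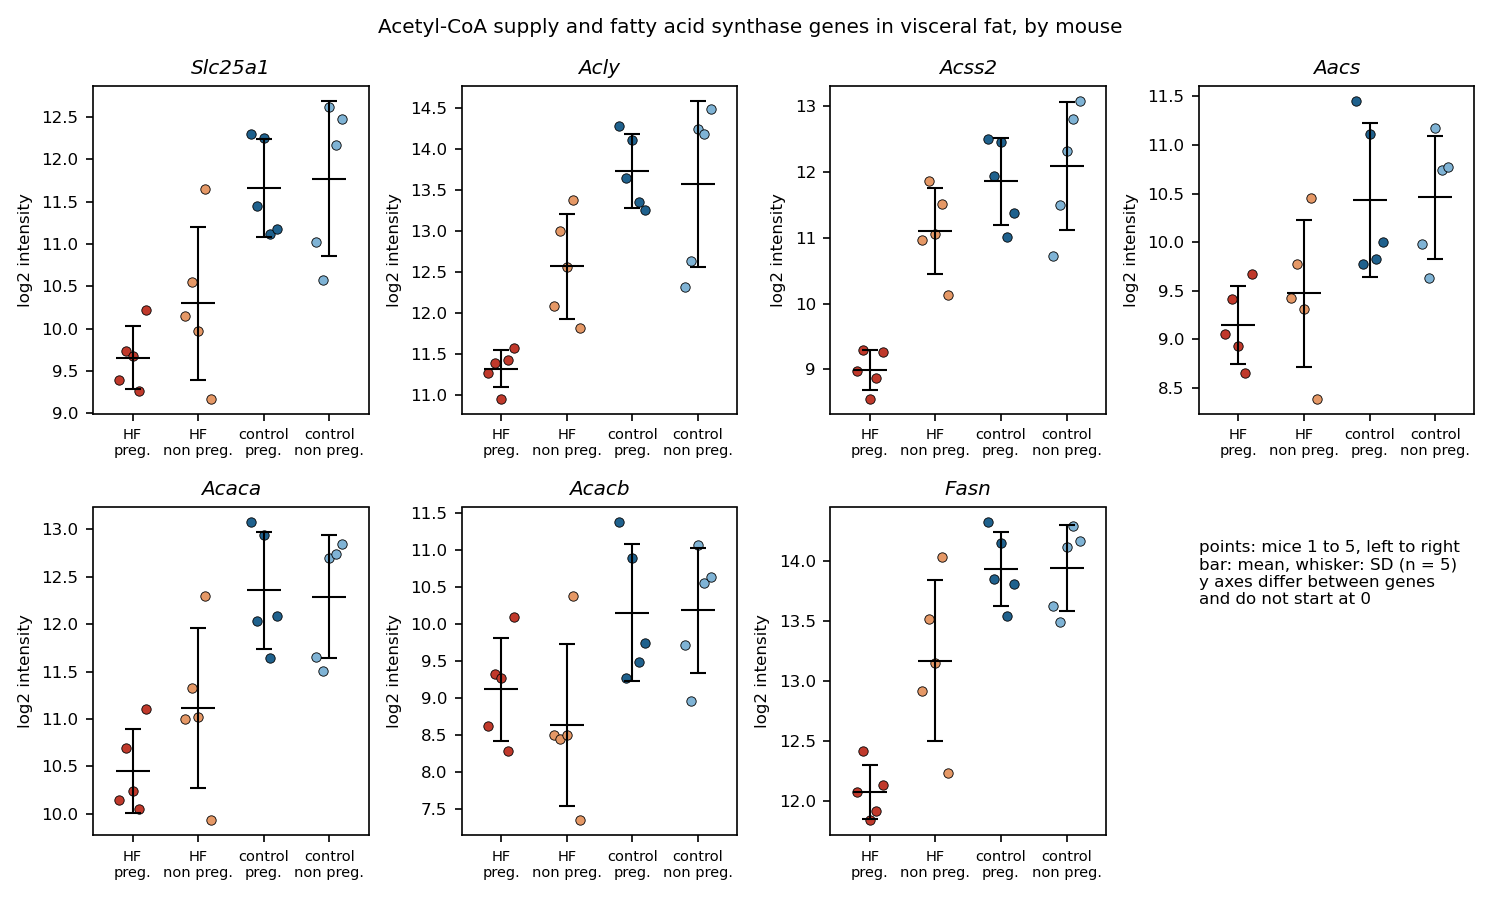
Log2 intensity (y axis) of the 7 genes in the mice of each group (x axis, 5 mice per group, points), with the mean (bar) and SD (whisker). HF pregnant mice lie below all control pregnant mice in every panel but that of Acacb. For Acly, Acss2 and Fasn the HF non pregnant means lie between the HF pregnant and control means. The HF non pregnant mice of these panels overlap both control groups.

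Without pregnancy the means of the 7 genes were again all below those of the control diet, and none passed the test. The log2 fold changes of HF non pregnant over control non pregnant mice lay between -1.55 (Acacb) and -0.77 (Fasn). The count called was 0 of 7 (adjusted p from limma 0.281 for each), in a comparison in which 0% of all probe sets passed. With arrays weighted by quality 7 of 7 were called, beside 7489 of all 19802 probe sets, and by rank product with its unadjusted p 7 of 7, beside 1742. At an unadjusted p under 0.05, 7 of 7 were lower, where 7.22% of all probe sets were. None of the 7 separated the groups completely, as 0.712% of all probe sets did.

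Slc25a1 was among the genes that came closest to separating the groups in this comparison. Its intensity was 1138, 1505, 1004, 3198 and 577 in HF non pregnant mice, against 2083, 1526, 6297, 4611 and 5682 in control non pregnant mice. Of the HF non pregnant mice, 4 of 5 lay below every control non pregnant mouse, and mouse 4 lay among the control mice (log2 -1.47 ± 0.43, SE; exact two-sided permutation p = 0.0476 over 252 regroupings). Acacb behaved likewise, with 360.0, 347, 361, 1326 and 163 in HF non pregnant mice, against 839, 497, 2139, 1503 and 1579 in control non pregnant mice (log2 -1.55 ± 0.53, SE; exact permutation p = 0.0476). For Acaca, too, 4 of 5 HF non pregnant mice lay below every control non pregnant mouse (log2 -1.18 ± 0.39, SE; exact permutation p = 0.0476). Fasn had 7759, 11768, 9121, 16756 and 4823 in HF non pregnant mice, against 12692, 11530.0, 17849.6, 20145 and 18396 in control non pregnant mice, and 3 of 5 HF mice lay below all control mice (log2 -0.77 ± 0.26, SE; exact permutation p = 0.0476). The same mouse, HF non pregnant mouse 4, was the highest of its group for 6 of the 7 genes, and mouse 5 was the lowest for 7 of 7.

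Averaged over pregnancy, 5 of 7 genes were called lower on the HF diet, where 1.24% of all probe sets were called in either direction. At an unadjusted p under 0.05, 7 of 7 were lower, against 13.5% of all probe sets. The log2 fold changes of HF over control were -1.92 for Acss2 (adjusted p from limma 0.00488), -1.74 for Slc25a1 (adjusted p 0.0172), -1.71 for Acly (adjusted p 0.00747), -1.54 for Acaca (adjusted p 0.0172) and -1.31 for Fasn (adjusted p 0.00242). Aacs, at -1.14 (adjusted p from limma 0.0511), and Acacb, at -1.29 (adjusted p 0.0754), did not pass. This average uses the same mice as both diet comparisons above and is not a further observation.

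**Figure D2:**
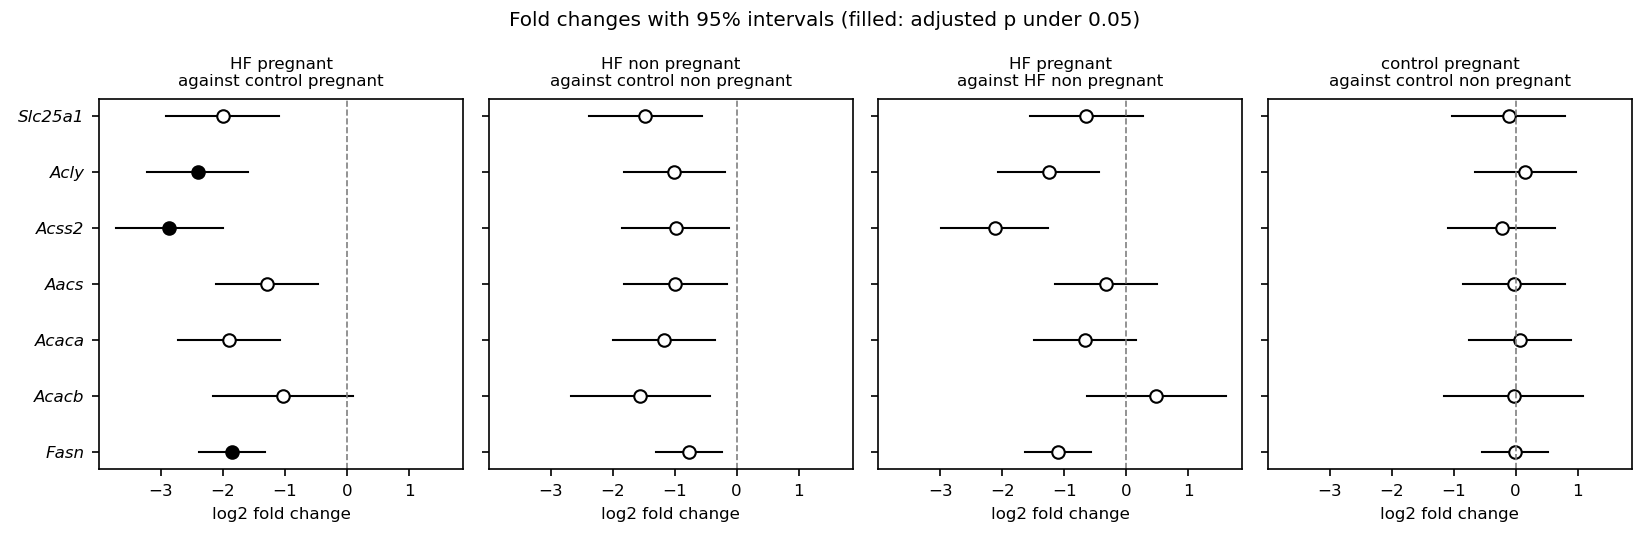
Log2 fold changes (x axis) of the 7 genes (rows) with 95% intervals in the 4 comparisons of groups, filled where the adjusted p was under 0.05. Acss2, Acly and Fasn are filled in HF pregnant against control pregnant mice, all 7 points lie left of 0 in both diet comparisons, and the intervals of control pregnant against control non pregnant mice all include 0.

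On the HF diet, none of the 7 genes passed between pregnant and non pregnant mice. The fold change farthest from 0 was that of Acss2. Its intensity was 503, 625, 376, 468 and 614 in HF pregnant mice, against 2008, 3713, 2124, 2932 and 1127 in HF non pregnant mice. No value was shared between these groups, and the level was 4.34-fold lower in HF pregnant mice (log2 -2.12 ± 0.41, SE). It ranked 5 among all 19802 probe sets, counted from the most negative moderated statistic, but did not pass after adjustment (adjusted p from limma 0.113). Acly was also without overlap, with 2460.4, 2677, 1979, 2742 and 3023 in HF pregnant mice, against 4340.0, 8153, 6045, 10634 and 3602 in HF non pregnant mice (log2 -1.25 ± 0.39, SE; adjusted p from limma 0.632). For Fasn, 4 of 5 HF pregnant mice lay below every HF non pregnant mouse (log2 -1.09 ± 0.26, SE; adjusted p from limma 0.293).

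The other 4 genes had intervals that included 0. The log2 fold changes of HF pregnant over HF non pregnant mice were -0.67 for Acaca (95% interval -1.49 to 0.15), -0.64 for Slc25a1 (-1.56 to 0.27), -0.33 for Aacs (-1.15 to 0.50) and 0.49 for Acacb (-0.64 to 1.61). In all, 0 of 7 passed with limma, against 0.0252% of all probe sets. Without HF non pregnant mouse 5, Acss2 and Fasn passed (adjusted p from limma 0.0455 and 0.0364), beside 10 of all probe sets. With arrays weighted by quality 4 of 7 were called, beside 2679 of all probe sets, and by rank product 5 of 7, beside 436. At an unadjusted p under 0.05, 3 of 7 were lower, against 2.45% of all probe sets, and 2 of 7 separated the groups completely, against 0.889%.

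The ratio of Acss2 to each other member, taken within each mouse, was lower in every HF pregnant mouse than in every HF non pregnant mouse for 6 of 6 members, by log2 differences between -0.87 (against Acly) and -2.60 (against Acacb). The exact two-sided permutation p was 0.00794 for each, the smallest that 5 against 5 mice allow. This comparison was chosen after the values had been seen, and the ratio of Acss2 to any other gene behaved so for 88.9% of the 10602 other genes, so it is near the background for Acss2 and is not particular to these members.

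On the control diet, the mean levels of pregnant and non pregnant mice were close for all 7 genes. The log2 fold changes of control pregnant over control non pregnant mice lay between -0.23 (Acss2) and 0.16 (Acly). None of the 7 passed (limma, 0 of 7, as for 0% of all probe sets), 0 of 7 did so at an unadjusted p under 0.05, against 1.52% of all probe sets that were lower, and 0 of 7 separated the groups, against 0.116%. The 95% interval was narrowest for Fasn, at -0.54 to 0.53, and widest for Acacb, at -1.16 to 1.09, so that the data leave room for sizeable changes in either direction.

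Whether pregnancy acted alike on both diets was tested in the same fit, as the change with pregnancy on the HF diet minus that on the control diet. It was -1.89 ± 0.58 (log2, SE) for Acss2, -1.41 ± 0.55 for Acly and -1.09 ± 0.36 for Fasn. A negative sign means that the change with pregnancy was more negative on the HF diet than on the control diet. None passed after adjustment (adjusted p from limma 0.933 for each of these 3), with 0 of 7 called against 0% of all probe sets, and 3 of 7 lower at an unadjusted p under 0.05 against 1.73% of all probe sets. The 95% intervals of Slc25a1, Aacs, Acaca and Acacb included 0. Averaged over the diets, pregnancy gave 0 of 7 calls with limma, against 0.0101% of all probe sets. With arrays weighted by quality 3 of 7 were called, beside 1706 of all 19802 probe sets. At an unadjusted p under 0.05, 2 of 7 were lower (Acss2, log2 -1.17, and Fasn, log2 -0.55), against 2.51% of all probe sets. All of these comparisons draw on the same 20 mice, so their values stand side by side and are not separate evidence.

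The order of the group means thus differed by gene. For Acss2, Acly and Fasn the mean log2 level was lowest in HF pregnant mice (8.99 ± 0.30, 11.32 ± 0.23 and 12.08 ± 0.22, SD, n = 5), next in HF non pregnant mice (11.11 ± 0.65, 12.57 ± 0.64 and 13.17 ± 0.67) and highest in both control groups, which did not differ beyond their spread (for Acss2, 11.86 ± 0.66 with pregnancy and 12.09 ± 0.97 without). The HF non pregnant mice overlapped both control groups for Acss2, Acly and Fasn. For Fasn they also overlapped the HF pregnant mice (lowest HF non pregnant intensity 4823, highest HF pregnant intensity 5475). For Slc25a1, Acaca and Aacs the HF pregnant and HF non pregnant groups were neighbours in the order and overlapped, as did both control groups. For Acacb the lowest mean was that of HF non pregnant mice (8.63 ± 1.09), next to HF pregnant mice at 9.12 ± 0.70, control pregnant mice at 10.15 ± 0.92 and control non pregnant mice at 10.18 ± 0.84 (SD, n = 5), and each of these neighbours overlapped.

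The 7 genes varied more between mice of a group than most probe sets did. The median of their 7 SDs (log2) was 0.37 for the HF pregnant group, 0.75 for the HF non pregnant group, 0.62 for the control pregnant group and 0.84 for the control non pregnant group, where the median SD over all probe sets was between 0.16 and 0.28. Within a group the mice tended to move in step, though among HF pregnant mice not for every pair of genes. Control pregnant mouse 1 was the highest of its group for 7 of 7 genes, and in control non pregnant mice the lowest value always belonged to mouse 1 (2 genes) or mouse 2 (5 genes). With the group means removed, the 21 pairs of genes had Pearson correlations over the 20 mice between 0.65 (Acss2 and Acacb; Spearman 0.68) and 0.96 (Slc25a1 and Acaca; Spearman 0.93), each with an adjusted permutation p of 0.00675 or less over the 21 pairs. Without the 2 mice farthest from the median of the first gene of each pair, the lowest was 0.62 and the highest 0.95. The members share arrays and tissue pieces, and adipocyte and brown fat markers moved with some or all of them, as given with the marker lists.

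**Figure D3:**
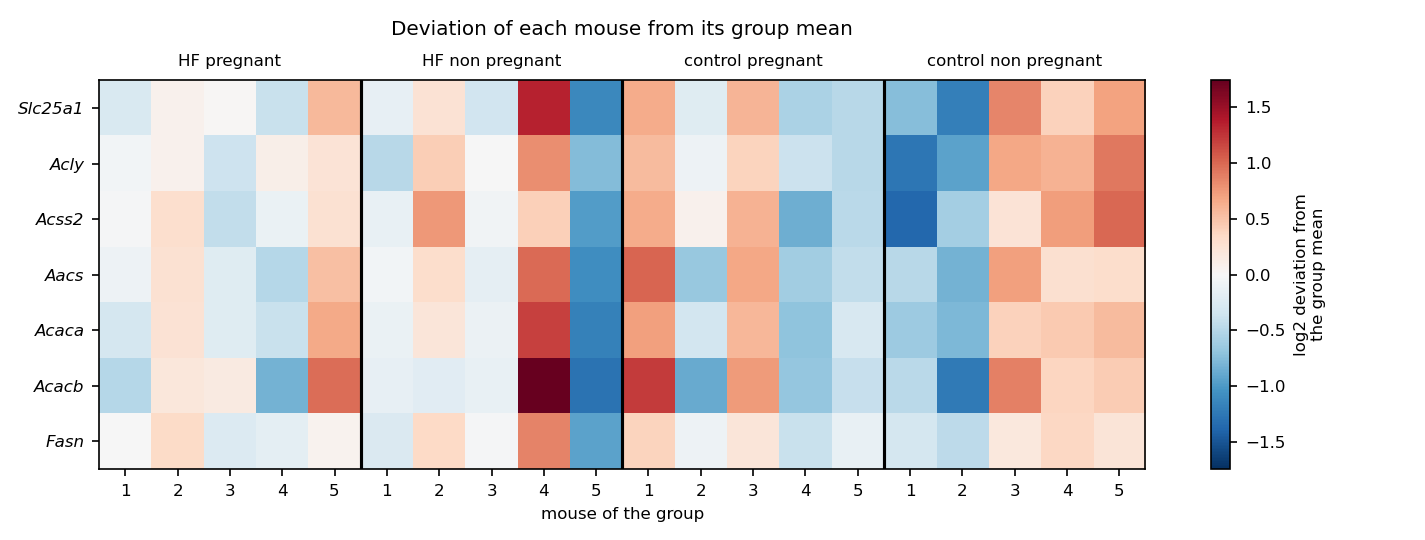
Log2 deviation of each mouse (columns, mice 1 to 5 of each group) from its group mean for the 7 genes (rows), red above and blue below. Columns tend to be of 1 colour, as in HF non pregnant mouse 5 (lowest in 7 of 7 genes) and control pregnant mouse 1 (highest in 7 of 7), and the HF pregnant columns are on the whole the palest.

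The genes most like the members were found by Pearson correlation of log2 levels over the 20 mice, the 5 nearest of 10602 other genes being kept for each member. Mpc1, a subunit of the mitochondrial pyruvate carrier, was among the nearest of 3 members, and Me1 (malic enzyme, a source of NADPH), Tkt (transketolase of the pentose phosphate path), Pygl (a glycogen phosphorylase), Fabp5 (a fatty acid binding protein) and Enpep (a membrane aminopeptidase) of 2 each. The nearest of Fasn was Tkt (r = 0.98), that of Acly was Me1 (r = 0.99), that of Acss2 was Gys2, a glycogen synthase (r = 0.97), and that of Aacs was Nudt7, a peroxisomal enzyme that breaks down CoA (r = 0.99). Slc25a1 and Acaca were each among the 2 nearest of the other (r = 0.98). With group means removed, the nearest of Fasn was Thrsp, the thyroid hormone responsive protein of fat synthesis (r = 0.97), and that of Slc25a1 was Mpc1 (r = 0.98). These are descriptions over 20 mice that share groups and arrays.

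On the route that feeds the citrate carrier, Mpc1 was lower in late pregnancy on the HF diet. Of 13 listed genes of pyruvate entry, citrate synthesis and malate exchange, 11 were tested and 11 had a negative log2 fold change in HF pregnant over control pregnant mice (median -0.88), and 1 of 11, Mpc1, was called (log2 -1.80 ± 0.30, SE; adjusted p from limma 0.0107). Of all probe sets, 40% were negative and 0.192% called there. Slc25a10, the dicarboxylate carrier, had -1.54 (adjusted p from limma 0.0726), Pdha1 of pyruvate dehydrogenase -0.88 (adjusted p 0.126) and Pdhb, its partner subunit, -1.12 (adjusted p 0.141). Averaged over pregnancy, 5 of 11 were called lower on the HF diet: Mpc1 (log2 -1.36), Slc25a10 (-1.17), Pdha1 (-0.78), Pdhb (-0.96) and Pcx, pyruvate carboxylase (-0.97). In that comparison 1.24% of all probe sets were called in either direction.

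Downstream, the enzymes that supply NADPH and extend or desaturate the product included Elovl6 and Me1, both called lower. Of 12 listed, 10 were tested, 10 were negative in HF pregnant over control pregnant mice (median -0.50) and 2 were called. The shares of all probe sets were 40% negative and 0.192% called. Elovl6, which lengthens palmitate, had a mean log2 level of 8.47 ± 0.47 in HF pregnant mice and 13.34 ± 0.56 in control pregnant mice (SD, n = 5 each; log2 fold change -4.87, adjusted p from limma 0.00173). Me1 had 10.81 ± 0.32 in HF pregnant mice and 13.42 ± 0.47 in control pregnant mice (log2 fold change -2.61, adjusted p from limma 0.00542). Pgd, of the pentose phosphate path, had a log2 fold change of -1.32 (adjusted p from limma 0.125), the desaturase Scd2 -1.01 (adjusted p 0.17) and Scd1, the main desaturase of fat, -0.18 (adjusted p 0.229). The mean log2 levels of Scd1, 14.59 in HF pregnant and 14.77 in control pregnant mice, lay at the top of the arrays' intensity range. Its fold change therefore cannot show how far Scd1 changed. Averaged over pregnancy, Elovl6, Me1 and Pgd were called lower, 3 of 10, where 1.24% of all probe sets were called in either direction.

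Other enzymes of acetyl-CoA and acetoacetate had fold changes above 0 in late pregnancy, as most probe sets did, and none of them was called. Of all probe sets, 40% were negative in HF pregnant over control pregnant mice. Of 10 listed, 5 were tested, 0 had a negative log2 fold change in HF pregnant over control pregnant mice (median 0.33) and 0 were called in any of the 7 comparisons (limma, 0 of 5 at an unadjusted p under 0.05 as well). Oxct1, which uses acetoacetate in mitochondria, had 0.28 (adjusted p from limma 0.464), Hmgcs1, the cytosolic HMG-CoA synthase, 0.39 (adjusted p 0.464) and Bdh1, which interconverts the ketone bodies, 1.04 (adjusted p 0.522). Among 15 listed modifiers of the carboxylases and synthase and enzymes of malonyl-CoA, 14 were tested and 0 were called in late pregnancy (limma, 3 at an unadjusted p under 0.05, against 12.8% of all probe sets, median -0.15). Thrsp came closest at -1.12 (adjusted p from limma 0.0872), then Acsf3, a malonyl-CoA synthetase of mitochondria, at -0.46 (adjusted p 0.298) and Mid1ip1, a partner of the carboxylases, at -0.53 (adjusted p 0.309). Averaged over pregnancy Thrsp was called lower (log2 -0.99, adjusted p from limma 0.019), 1 of 14, where 1.24% of all probe sets were called.

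Of 13 listed transcription regulators, 12 were tested, with a median log2 fold change of -0.10 in HF pregnant over control pregnant mice and 0 calls (limma, 1 at an unadjusted p under 0.05, against 12.8% of all probe sets). Insig1, which retains the sterol sensor in the endoplasmic reticulum and is itself a target of SREBP, had -1.37 (adjusted p from limma 0.0982) and was called lower on the HF diet averaged over pregnancy (adjusted p 0.0403). Usf1 had 0.15 (adjusted p from limma 0.443) and Mlx -0.22 (adjusted p 0.544). Srebf1 and Mlxipl, which encode SREBP1 and ChREBP, the regulators best known for switching on these genes, were singled out after their values had been seen, at -0.23 (SE 0.29; adjusted p from limma 0.701) and -0.56 (SE 0.47; adjusted p 0.575). Without pregnancy, Srebf1 had a mean log2 level of 10.54 ± 0.60 in HF and 11.22 ± 0.29 in control mice (SD, n = 5 each). Mlxipl had 8.79 ± 0.91 in HF and 10.01 ± 0.71 in control mice. No regulator was called without pregnancy, and averaged over pregnancy only Insig1 was. Isoforms of these regulators and their processing to the active protein were not measured here.

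**Figure D4:**
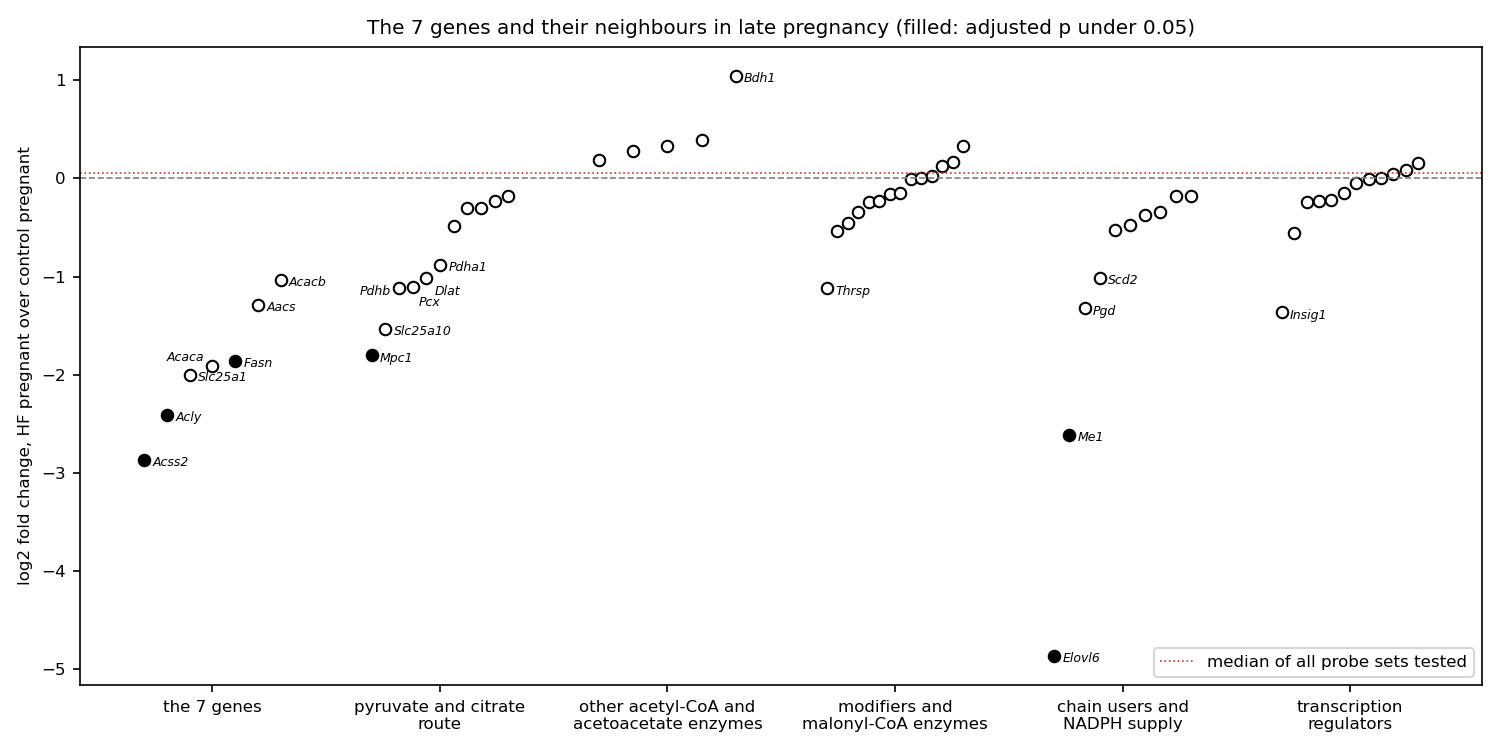
Log2 fold change of HF pregnant over control pregnant mice (y axis) for the 7 genes and 5 lists of neighbouring genes (x axis), 1 point per gene, filled where the adjusted p was under 0.05, with the median of all probe sets tested as a dotted line (0.05). Filled points are Acss2, Acly, Fasn, Mpc1, Elovl6 and Me1, and the 5 other enzymes of acetyl-CoA and acetoacetate all lie above 0, where 40% of all probe sets tested were negative.

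The tissue carried the markers of fat on every array: Adipoq, the adiponectin gene, had intensities between 14336 and 24630, and Fabp4 between 20803 and 29937. In bulk tissue, fewer cells of a type and less RNA per cell cannot be told apart. Exact permutation p values of marker lists, here and below, were not adjusted for the number of lists and comparisons. The mean of 8 tested adipocyte markers of 10 listed differed by -0.14 (log2) between HF pregnant and control pregnant mice (ranges -0.53 to 0.41 and -0.56 to 0.63; exact two-sided permutation p = 0.643). Without pregnancy, the HF group differed from the control group by -0.19 (exact permutation p = 0.516). Within groups, the adipocyte mean correlated with Aacs (Pearson r 0.69, adjusted permutation p = 0.0287; Spearman rho 0.62, adjusted permutation p = 0.0449) and Acaca (Pearson r 0.64, adjusted permutation p = 0.0396; Spearman rho 0.61, adjusted permutation p = 0.0449), and without the 2 farthest mice r was 0.56 and 0.52. For the other 5 genes r lay between 0.37 and 0.60 and did not pass over the 42 relations. HF non pregnant mouse 5, lowest of its group for 7 of 7 genes, was also its lowest in adipocyte markers (-0.81), and control pregnant mouse 1, highest for 7 of 7, its highest (0.63). The same mice lay at the other end of their groups in B and T cell markers. HF non pregnant mouse 5 was highest (2.34 and 1.51) and control pregnant mouse 1 lowest (-2.92 and -1.55). The control non pregnant group held mice that went the other way. Mouse 2, lowest of that group for 5 of 7 genes, was its highest in adipocyte markers (0.29) and lowest in T cell markers (-1.61). Its mouse 5, highest for 3 genes, was lowest in adipocyte markers (-0.008) and highest in B and T cell markers (0.70 and 0.49). B cell markers (4 of 6 tested) were higher by 1.57 in HF non pregnant than control non pregnant mice (exact permutation p = 0.0952). No correlation of B or T cell markers with the 7 genes passed over the 42 relations. Markers of brown fat moved with the members. The mean of 4 tested of 7 listed (Cidea, Cox8b, Cox7a1 and Ppargc1a) differed by -0.97 between HF pregnant and control pregnant mice (exact permutation p = 0.0159), with ranges of -1.07 to -0.32 and -0.35 to 0.86. Without pregnancy the difference was -0.99 (exact permutation p = 0.0476). Its deviations from the group means correlated with those of each of the 7 genes over 20 mice (Pearson r between 0.63 and 0.85, Spearman rho between 0.70 and 0.82, adjusted permutation p of 0.03 or less over 42 relations, and r of 0.59 or more without the 2 farthest mice). Ucp1 and Dio2, which define brown fat, were under 100 on 20 of 20 arrays. The part of these markers in the result was not tested.

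The pancreas adjoins the mesentery, and 1 of its transcripts differed between the diets in late pregnancy. Of 9 listed acinar markers 1 was tested, Cela1, and it differed by -2.17 (log2) between HF pregnant and control pregnant mice (exact two-sided permutation p = 0.0159), with ranges of -1.70 to -0.27 and -1.10 to 4.17. Over the 20 mice with group means removed, it correlated by rank with Acss2 (Spearman rho 0.63, adjusted permutation p = 0.0449; Pearson r 0.55, adjusted permutation p = 0.123, and 0.71 without the 2 farthest mice) and with Fasn (Spearman rho 0.62, adjusted permutation p = 0.0449; Pearson r 0.39, adjusted permutation p = 0.13, and 0.55 without the 2 farthest mice). The 7 acinar markers above 100 on any array, a summary chosen after the values had been seen, were high on 1 array of each control group. Their mean was 6.03 above its series mean (log2) in control pregnant mouse 2 and 5.74 above it in control non pregnant mouse 4, against at most 2.01 on any other array. Without those 2 arrays, 3 of 7 genes were still called lower in HF pregnant than control pregnant mice (adjusted p from limma 0.0141 for Acss2, 0.0246 for Acly and 0.0121 for Fasn), beside 48 of all probe sets. Averaged over pregnancy, 7 of 7 were then called lower on the HF diet, beside 2011 of all probe sets called in that setting and 246 with all arrays. The part of pancreatic transcripts in the other results was not tested. Endothelial markers (5 of 5 tested) were higher by 0.30 in HF pregnant than control pregnant mice (exact permutation p = 0.0397), with ranges of -0.04 to 0.33 and -0.36 to 0.16, and macrophage markers (6 of 7 tested) by 0.31 (exact permutation p = 0.214). On the HF diet, mesothelial markers (5 of 5 tested) were higher by 0.51 with pregnancy than without it (exact permutation p = 0.0238), with ranges of 0.04 to 0.39 in HF pregnant mice and -0.98 to 0.20 in HF non pregnant mice. Liver markers (2 of 6 tested) lay 3.72 and 2.27 above their series mean (log2) in HF non pregnant mice 1 and 2, against at most 0.74 in any other mouse. The part of these markers in the differences between the HF groups was not tested. The milk protein genes Csn2, Csn3, Wap and Lalba were under 100 on 20 of 20 arrays.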

How the data were processed

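RNA from visceral fat of 20 mice was hybridised singly to Affymetrix whole-genome mouse arrays. The authors normalized the scans by robust multi-array average (affy, R 2.8.0) and deposited linear intensities of 45101 probe sets for every array. RNA was extracted with Trizol per the labels and with columns per the methods.

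The deposited intensities were put on the log2 scale and not normalized again. Probe sets for array controls (64) were dropped, and 19802 probe sets above 100 on at least 5 of 20 arrays were tested, of which 17322 carry 1 symbol in the platform annotation, 531 several and 1949 none. limma 3.58.1 (R 4.3.3) fitted 4 group means with default moderation, and 7 comparisons were adjusted over all tested probe sets (Benjamini-Hochberg, threshold 0.05). The fit was run on simulated data with known changes, independent noise and the same spread in every group. The spreads of the real groups differed, so the simulation does not show how the fit behaves there. Single values were checked by exact permutation of 5 against 5 mice (252 regroupings, smallest p 0.00794), and correlations by 100000 permutations within groups. Python 3.11.15 was used for these.

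Named genes are the 7 members, neighbours of 5 lists that passed plus at most 3 per list with the smallest p in HF pregnant against control pregnant mice, and the 5 genes most like each member. The members, lists and tests were chosen with earlier results of these data known. No scan dates or batches are given, so batch could not be examined. The number of arrays limits the precision.

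Alternatives were other filters, normalizations, array weights, moderation, a floor of 100, other probe sets, a fit to the groups compared alone, a replicate block, the methods' rank product selection, and leaving out single arrays or the 2 arrays high in pancreatic transcripts.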

Additional observations from a re-analysis of the deposited data

How the results depend on the processing

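The calls of Acss2, Acly and Fasn in HF pregnant against control pregnant mice held under each of the alternatives that gave an adjusted p (23, 24 and 22 of them; highest adjusted p from limma 0.0375, 0.0455 and 0.0269). The number of genes called there, 3 of 7, became 6 with arrays weighted by quality, 5 with a fit to those groups alone and 7 by rank product with a 1.5-fold change. Acaca (adjusted p 0.0561) crossed the threshold without control pregnant replicate 4 (0.0415). In HF non pregnant against control non pregnant mice the count of 0 became 7 with weighted arrays and 7 by rank product. Between the HF groups, the count of 0 for pregnancy became 4 with weighted arrays (2679 of all probe sets) and 5 by rank product (436), and lay between 0 and 2 when leaving out 1 array: without HF non pregnant replicate 5, Acss2 (adjusted p 0.0455) and Fasn (0.0364) passed. Averaged over diet, the count of 0 for pregnancy became 3 with weighted arrays (1706 of all probe sets). Averaged over pregnancy, the 5 genes called lower on the HF diet were 3 with the replicate block, Slc25a1 (adjusted p 0.0698) and Acaca (0.0787) being lost, and between 5 and 7 when leaving out 1 array. Weighted arrays raised the calls over all probe sets as well, to 1365 from 38 in HF pregnant against control pregnant mice and to 7489 from 0 in HF non pregnant against control non pregnant mice, and rank product to 1031. The cause was not tested. Same-numbered arrays did not go together as a rule: over 30 pairs of them the median correlation of deviations was -0.16 (-0.75 to 0.67). What the replicate numbers stand for is not given, and these correlations cannot decide whether same-numbered arrays shared a batch.

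Signs turned only among values that were not called. With weighted arrays, control pregnant over control non pregnant became -0.39 for Acly and -0.34 for Acaca, pregnancy averaged over diet became -0.053 for Acacb (0.23 unweighted), and the difference between the diets became 0.026 for Slc25a1 (-0.53 unweighted) and 0.053 for Aacs (-0.30 unweighted). Without the 2 arrays high in pancreatic transcripts, control pregnant over control non pregnant became 0.039 for Slc25a1, 0.21 for Aacs, 0.28 for Acacb and 0.10 for Fasn. Leaving out 1 array, that fold change ranged over -0.41 to 0.10 for Slc25a1, -0.16 to 0.39 for Acly, -0.57 to 0.022 for Acss2, -0.28 to 0.15 for Aacs, -0.13 to 0.24 for Acaca, -0.34 to 0.19 for Acacb and -0.12 to 0.091 for Fasn. The number of arrays, 5 per group, limits what can be seen, and no value here measures enzyme protein, flux or fatty acid synthesis.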
